A study of Mus musculus with 60 samples.

Results

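The left hippocampus of exercised mice was compared with the left hippocampus of sedentary mice for H3K27me3, a methylation of histone H3. The members are the peaks of the 2 lists that the labels tie to this antibody, hemisphere and isolation. There were 18262 peaks in the exercised and 14491 in the sedentary list, together 32753 of the 256375 peaks in the 12 lists of the series. The labels put 6 of 60 samples in the comparison, 3 exercised and 3 sedentary, and each condition had 1 list for its 3 libraries. All mice were Emx1-NuTRAP, in which a Cre recombinase expressed from the Emx1 locus switches on tags on the nuclei and ribosomes of Emx1-expressing cells, mostly excitatory neurons and also neural progenitors. All were male by the methods of the study. Exercised mice could use a wheel in the home cage between postnatal days 21 and 41, and the sedentary mice had standard cages over the same days. Tagged nuclei were purified from the left hippocampus by themselves (separate isolation) and profiled with CUT&RUN-seq, in which an antibody-guided nuclease releases the DNA beside the mark. The labels give no memory training for these samples.

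With 1 list per condition there is no spread between samples, so no difference below has a replicate check or a p-value. Intervals in brackets are 95% Wilson intervals and cover counting error over peaks or genes alone. The depth of each library is unknown, since the lists give positions and no counts and the study states a minimum alone.

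H3K27me3 is deposited by Polycomb repressive complex 2 and is recognised by Polycomb repressive complex 1. It lies in broad domains over developmental genes that a cell type keeps silent, such as the Hox clusters, and in narrower stretches at other silent genes. In neurons the mark covers regulators of other lineages, while genes in use, such as those of the synapse in an excitatory neuron, are usually free of it.

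The promoters shown here illustrate the kinds of start site described below. Each is the 250 bases before the start site, 5′ to 3′ on the strand of the gene, from RefSeq on GRCm38.p6, with each CG dinucleotide in capitals. CG dinucleotides are shown because Polycomb domains usually sit at CG-rich promoters. Wnt7a, Bmp8a and Ntf3 had H3K27me3 at the start site in the exercised list alone, and Myoc and Col4a5 in the sedentary list alone. Sox21 was covered in both lists and the promoter of Bdnf in neither. The start site of Prox1 lay in an exercised peak alone, with sedentary peaks on both sides of it.
Wnt7a, chr6:91411354-91411603, minus strand: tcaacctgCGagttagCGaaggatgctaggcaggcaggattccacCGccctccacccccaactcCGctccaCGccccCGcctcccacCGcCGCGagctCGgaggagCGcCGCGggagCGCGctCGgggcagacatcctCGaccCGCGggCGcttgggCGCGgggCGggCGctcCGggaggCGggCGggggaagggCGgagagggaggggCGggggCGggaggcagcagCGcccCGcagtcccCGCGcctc
Bmp8a, chr4:123343253-123343502, minus strand: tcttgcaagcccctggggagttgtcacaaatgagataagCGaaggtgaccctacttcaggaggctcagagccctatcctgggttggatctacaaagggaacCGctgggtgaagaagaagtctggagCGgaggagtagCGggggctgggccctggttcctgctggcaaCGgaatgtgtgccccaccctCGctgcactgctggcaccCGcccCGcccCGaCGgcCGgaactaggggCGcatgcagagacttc
Ntf3, chr6:126166745-126166994, minus strand: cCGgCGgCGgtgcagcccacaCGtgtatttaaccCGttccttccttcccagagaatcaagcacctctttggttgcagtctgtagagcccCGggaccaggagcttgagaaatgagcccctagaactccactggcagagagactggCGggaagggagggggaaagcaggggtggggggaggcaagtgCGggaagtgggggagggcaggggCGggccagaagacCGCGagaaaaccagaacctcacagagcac
Myoc, chr1:162638900-162639149, plus strand: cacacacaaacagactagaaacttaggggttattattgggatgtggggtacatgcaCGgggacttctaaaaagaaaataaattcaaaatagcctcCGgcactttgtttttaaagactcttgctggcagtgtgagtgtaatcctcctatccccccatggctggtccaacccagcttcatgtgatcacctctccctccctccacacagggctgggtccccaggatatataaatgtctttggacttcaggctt
Col4a5, chrX:141475169-141475418, plus strand: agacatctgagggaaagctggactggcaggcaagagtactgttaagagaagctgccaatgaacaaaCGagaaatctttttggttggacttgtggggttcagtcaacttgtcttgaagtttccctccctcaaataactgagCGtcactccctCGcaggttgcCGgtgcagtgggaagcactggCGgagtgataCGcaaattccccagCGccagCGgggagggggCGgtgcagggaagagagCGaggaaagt
Sox21, chr14:118237031-118237280, minus strand: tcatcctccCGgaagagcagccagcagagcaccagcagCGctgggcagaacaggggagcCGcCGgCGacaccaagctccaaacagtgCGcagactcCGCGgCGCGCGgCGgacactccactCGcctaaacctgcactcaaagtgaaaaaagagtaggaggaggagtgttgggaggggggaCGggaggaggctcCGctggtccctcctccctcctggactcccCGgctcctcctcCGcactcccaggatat
Prox1, chr1:190170828-190171077, minus strand: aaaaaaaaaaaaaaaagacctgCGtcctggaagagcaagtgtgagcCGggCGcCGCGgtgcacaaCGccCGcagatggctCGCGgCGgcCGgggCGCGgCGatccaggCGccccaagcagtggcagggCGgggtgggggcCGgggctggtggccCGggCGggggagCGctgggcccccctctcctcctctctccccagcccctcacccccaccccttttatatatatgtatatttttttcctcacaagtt
Bdnf, chr2:109674450-109674699, plus strand: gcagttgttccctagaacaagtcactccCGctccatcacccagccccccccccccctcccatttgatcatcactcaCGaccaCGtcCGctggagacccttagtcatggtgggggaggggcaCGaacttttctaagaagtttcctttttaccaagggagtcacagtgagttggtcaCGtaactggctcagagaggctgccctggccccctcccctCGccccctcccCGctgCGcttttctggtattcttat
The 250 bases hold 34 CG in Wnt7a, 12 in Bmp8a, 11 in Ntf3, 2 in Myoc, 10 in Col4a5, 17 in Sox21, 20 in Prox1 and 9 in Bdnf. Over the same 250 bases of 21911 protein-coding genes of the annotation the median was 8 CG, and 92.4% held at least 1. Wnt7a stood at percentile 96.4 of these genes by CG number and Myoc at percentile 16.9, so promoters rich and poor in CG were found in 1 list and not the other. The exercised peak covered all 250 bases of Wnt7a and Bmp8a, 169 of those of Ntf3 and 97 of those of Prox1, where the sedentary list covered 0. The sedentary peak covered all 250 of Myoc and of Col4a5.

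H3K27me3 in the left hippocampus lay over the same broad domains in both conditions, and the lists differed both in narrow peaks and in the extent of shared domains. The exercised list was 1.26 times as long as the sedentary list and covered 92.4 Mb against 73.9 Mb, of which 58.1 Mb were in both (Jaccard index of bases 0.536). Of the exercised peaks, 11204 (61.4% [60.6 to 62.1]) shared at least 1 base with a sedentary peak. Of the sedentary peaks, 11904 (82.1% [81.5 to 82.8]) shared at least 1 base with an exercised peak. The remaining 7058 exercised and 2587 sedentary peaks are called exercised-only and sedentary-only below. Of the 34.4 Mb covered in the exercised list alone, 19.1 Mb lay in exercised-only peaks and 15.3 Mb in overlapped peaks. Of the 15.8 Mb covered in the sedentary list alone, 6.87 Mb lay in sedentary-only peaks and 8.96 Mb in overlapped peaks. After overlapping peaks were joined into 19634 regions, 9989 (50.9%) held peaks of both lists, 35.9% held exercised peaks alone and 13.2% held sedentary peaks alone.

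Overlapped peaks were wider than the others, and by construction a wide peak meets a minimum of 1 shared base more easily. Of peaks of at least 5000 bp, 4703 of 4966 exercised (94.7%) and 4010 of 4049 sedentary (99.0%) were overlapped by the full other list. When the other list was also held to that width, which removes narrower counterparts, the shares were 64.3% and 83.5%. Exercised-only peaks had a median width of 2437 bp and sedentary-only peaks 2485 bp, against 4328 and 3775 bp for overlapped peaks of the exercised and sedentary list. All 502 exercised peaks and all 361 sedentary peaks of 20 kb or more were overlapped. Between 5 and 10 kb the shares were 92.3% and 98.6%, and between 2 and 3 kb they were 37.7% and 67.8%. Just inside the rule, 58 overlapped exercised peaks and 43 overlapped sedentary peaks shared 100 bp or less with the other list. Just outside it, 1640 exercised-only peaks (23.2%) and 791 sedentary-only peaks (30.6%) lay within 3 kb of a peak of the other list, and the median distance to the nearest was 10.2 kb and 8.04 kb.

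**Figure D1:**
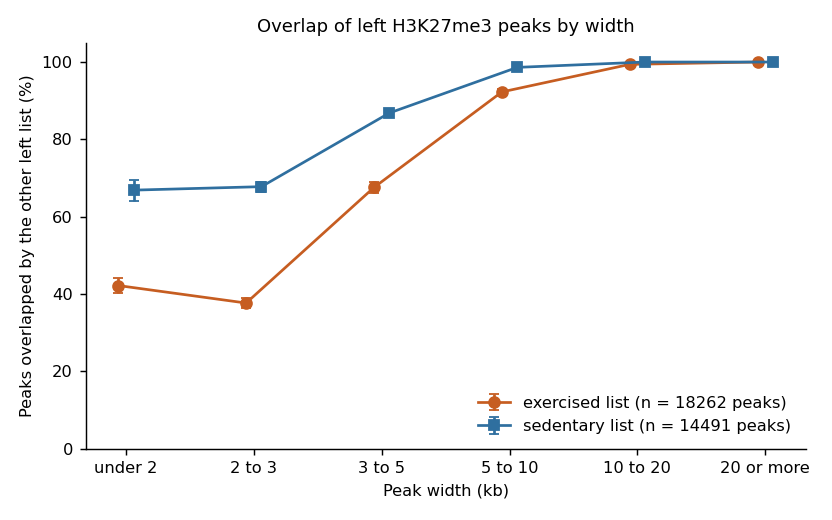
Share of left H3K27me3 peaks that share at least 1 base with the other left list, by peak width in kb, for the exercised (circles) and sedentary (squares) lists, with 95% Wilson intervals. The exercised share is 42.2% below 2 kb and 37.7% from 2 to 3 kb, the sedentary share 66.9% and 67.8%, and both climb from there to 100% at 20 kb or more.

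The shares moved with the length of the lists and the overlap asked for. When the 14491 widest peaks of each list were compared, so that both were equally long, 67.1% of exercised and 74.4% of sedentary peaks were overlapped. This left out 3771 exercised peaks and no sedentary peak, and the narrowest exercised peak kept was 2186 bp wide. A reciprocal overlap of at least 50% was met by 41.3% of exercised and 52.1% of sedentary peaks. The exercised list had more peaks on each chromosome, from 1.09 times as many on chromosome 10 to 1.43 times on chromosomes 7 and X. Chromosome X held 73 exercised and 51 sedentary peaks.

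Within the regions that both lists shared, most held a single peak of each list. Of the 9989 shared regions, 7867 (78.8%) held 1 peak of each list. In these the left edges differed by a median of 709 bp and the right edges by 716 bp, with median widths of 3981 bp (exercised) and 3503 bp (sedentary). Over all shared regions the median log2 ratio of covered bases, exercised over sedentary, was 0.09, with quartiles of -0.20 and 0.43. The exercised list covered at least 2-fold more bases in 694 shared regions (6.95%) and the sedentary list in 287 (2.87%). An exercised peak spanned several sedentary peaks in 1049 regions, and a sedentary peak spanned several exercised peaks in 638.

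The broadest domains were those of the Hox clusters and other developmental loci. The widest peak of either list lay over the HoxC cluster and was assigned to Hotair, a long non-coding RNA transcribed from that cluster. It spanned 193793 bp in the exercised list (chr15:102896607-103090399) and 183681 bp in the sedentary list (chr15:102896456-103080136). The HoxB domain, assigned to Hoxb3os, spanned 106931 bp (exercised) and 142471 bp (sedentary), and the peak assigned to Gm10578 on chromosome 7 spanned 154652 and 153742 bp. The widest 5 of the exercised list also held a peak of 123695 bp assigned to Ebf1, a transcription factor of B cells and of some neurons, and a peak of 110824 bp assigned to Sfta3-ps. Those of the sedentary list also held a peak of 114015 bp assigned to Gm21188 and a peak of 109498 bp over the HoxA cluster, assigned to Hoxa10. All these peaks were at least 97.4% covered by the other list and were present in each of the 4 H3K27me3 lists of the other isolations.

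The widest peaks without a counterpart were far narrower. The widest exercised-only peak, 13760 bp in the Sprr2 cluster of cornified-envelope genes (chr3:92268935-92282694), was assigned to Sprr2a3, and a sedentary peak of 1712 bp began just downstream of it, at chr3:92283677. The next were assigned to Gm15319 (11955 bp), Rab12 (10960 bp), Sulf1 (10724 bp) and Ptprtos (10679 bp). The Sulf1 peak covered a start site of this gene, which encodes a sulfatase that edits heparan sulfate outside the cell (chr1:12691268-12701991). Other peaks assigned to Sulf1 were present in both lists. Among sedentary-only peaks the widest was 8591 bp, assigned to Hsd17b12, which encodes an enzyme of long-chain fatty acid synthesis, followed by Zfp647 (7840 bp), a peak of 7777 bp with no gene symbol, Mir8110 (7244 bp) and Ss18 (7004 bp).

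Peaks without a counterpart were less often annotated as promoter than overlapped peaks, by a margin that shrank when widths were matched. A peak was annotated as promoter where it came within 3000 bp of a start site. This was the case for 12.6% [11.9 to 13.4] of exercised-only and 15.0% [13.7 to 16.4] of sedentary-only peaks, and for 23.6% and 22.6% of overlapped peaks of the exercised and sedentary list. Introns held 25.1% of exercised-only, 22.0% of sedentary-only and 18.4% and 19.9% of overlapped peaks. Distal intergenic sequence held 3529 of the 7058 exercised-only peaks and 1304 of the 2587 sedentary-only peaks (50.4%), against 43.4% and 43.7% of overlapped peaks. A wide peak reaches a promoter more easily, so peaks of 2000 to 5000 bp were also compared. At these widths the promoter share was 12.5% of exercised-only against 18.4% of overlapped exercised peaks, and 15.3% of sedentary-only against 17.5% of overlapped sedentary peaks. The distal intergenic share was then 50.3% against 48.2% in the exercised list, and 1091 of 2180 against 47.7% in the sedentary list. Over whole lists the promoter share was 19.4% in the exercised and 21.3% in the sedentary list, and at equal list lengths it was 21.0% and 21.3%.

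**Figure D2:**
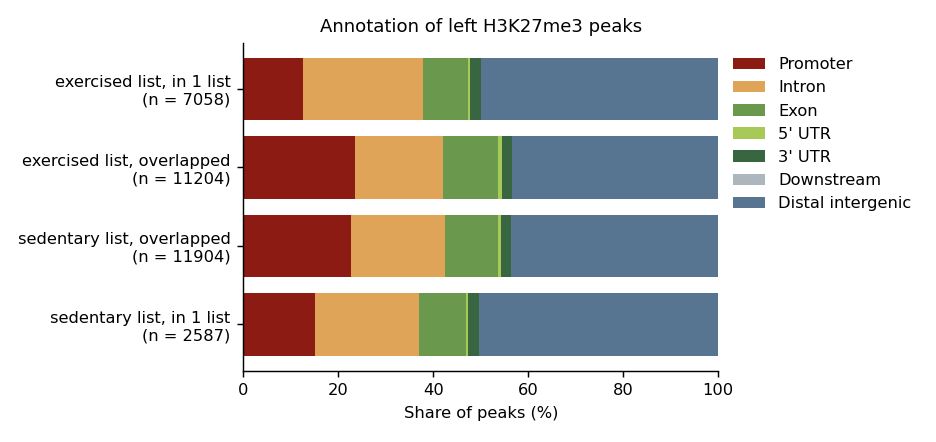
Annotation of left H3K27me3 peaks, as the share of peaks in percent, for peaks present in 1 list and peaks overlapped by the other list. Promoter peaks make up 12.6% and 15.0% of peaks in 1 list and 23.6% and 22.6% of overlapped peaks.

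In GC content the sedentary-only peaks were the lowest. The median GC content was 44.0% in exercised-only, 42.3% in sedentary-only and 44.2% in overlapped peaks of either list, against 41.7% for the genome. The median number of CG dinucleotides per kb was 9.28 in exercised-only, 8.39 in sedentary-only and 10.3 and 10.4 in overlapped peaks. At promoters the gap was wider, with 11.6 and 11.4 CG per kb in exercised-only and sedentary-only peaks and 15.9 and 16.1 in overlapped peaks. Among protein-coding genes, the 250 bases before the start site held a median of 10 CG where the start site lay in a peak of both lists, 5 where it lay in an exercised peak alone, 6 where it lay in a sedentary peak alone and 8 where it lay in none.

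Each peak carries the symbol of the gene that the authors' annotation assigned to it. By these symbols 5728 genes were listed, 4145 in both lists (72.4%), 1060 in the exercised list alone (18.5% of all listed) and 523 in the sedentary list alone (9.13%). A single peak stood behind 874 of the 1060 genes (82.5%) and 475 of the 523 (90.8%), with a median summed width of 2567 and 2603 bp. At equal list lengths the order turned, with 740 genes in the exercised list alone and 788 in the sedentary list alone. That cut removed exercised peaks alone, so it could only lower the exercised count and raise the sedentary count. With promoter peaks alone the counts were 662 and 359, and with at least 2 peaks required they were 186 and 48. Of the genes in both lists, 38.5% had more exercised peaks, 14.9% had more sedentary peaks and 46.5% had equal numbers.

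A symbol in 1 list alone was not always H3K27me3 in 1 condition alone. Of the 1060 exercised-only genes, 60 had a peak that overlapped a sedentary peak assigned to another gene, and so did 50 of the 523 sedentary-only genes. The Hox genes give the clearest case. Only 8 of 39 Hox symbols were listed, since a domain over a cluster is assigned to 1 gene, and 3 (Hoxc4, Hoxd8 and Hoxd10) were in the sedentary list alone. The start sites of all 3 lay inside peaks of both lists. The sedentary peak assigned to Hoxd10 (36721 bp) was 99.3% covered by exercised peaks and that of Hoxd8 (6004 bp) was 100% covered.

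Among exercised-only genes without such an overlap, the 10 with the largest summed peak width were led by 1700094M24Rik with 7 peaks (20314 bp) and 4931429L15Rik with 5 peaks (15513 bp). Nnmt, which encodes nicotinamide N-methyltransferase, an enzyme that uses up methyl groups, had 5 peaks (15411 bp), 1 of them over an annotated start site (chr9:48594506-48598402). Tmem241 had 5 peaks (15086 bp), Rab12, a small GTPase of membrane traffic, 2 (13796 bp), and Mad1l1, a component of the spindle checkpoint, 5 (13044 bp). Gm36536 (13000 bp), Sncaip (12895 bp), which encodes an alpha-synuclein-binding protein, Mroh2a (12833 bp) and Tmem158 (12524 bp) followed. Nnmt, Sncaip, Mroh2a and Tmem158 had 1 promoter peak each, and the other 6 genes had none.

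The 10 sedentary-only genes chosen the same way had fewer peaks and smaller summed widths. Dnajc5b had 4 (11169 bp), Mmp20, a protease of tooth enamel, 3 (10836 bp), and Eps8, a regulator of actin filaments, 4 (10732 bp), the widest at its promoter (chr6:137590881-137594054). Zfp647 had 1 peak (7840 bp). Klf12 (7355 bp), a transcriptional repressor, Hao2 (7179 bp), F930017D23Rik (6899 bp) and Smu1 (6680 bp), a splicing factor, had 2 each, as had the odorant receptor genes Olfr222 (7109 bp) and Olfr1508 (6846 bp). Eps8 had 2 promoter peaks, and Mmp20, Hao2, Olfr222, F930017D23Rik and Olfr1508 had 1 each.

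Symbols depend on the assignment, so start sites were also set against the peaks directly. Of 21911 protein-coding genes, 1384 (6.32%) had the start site in a peak of both lists, 381 in an exercised peak alone and 223 in a sedentary peak alone. These were 19.2% and 11.2% of the 1988 start sites in a peak of either list. At equal list lengths the counts were 282 and 283. Coverage was then measured over the 6001 bp centred on the start site. Among the 2039 genes touched by both lists, the median difference was 0 bp, 1046 (51.3%) differed by 500 bp or less, and 365 were covered from end to end in both. At least 50% of the window was covered in the exercised list and none in the sedentary list for 91 genes, and the reverse was the case for 56.

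Among the genes of 24 lists (developmental regulators, signalling pathways, channels, receptors and cell type markers), the promoter windows that differed most towards the exercised list were those of 5 genes. Calb2, which encodes the calcium buffer calretinin, was covered over 3628 bp in the exercised list and 0 bp in the sedentary list. Dbx2, a homeobox gene of the neural tube, was covered over 4804 and 1292 bp. Wnt7a, a WNT ligand, was covered over 3491 and 0 bp. Kcnt1, a sodium-activated potassium channel, was covered over 3353 and 0 bp, although a sedentary peak of 2623 bp lay upstream of it. Bmp8a, a BMP ligand, was covered over 3301 and 0 bp. In 4 of the 5, then, no sedentary peak reached the window.

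Among the same listed genes, the widest differences towards the sedentary list were those of Adra1b, the alpha-1B adrenergic receptor (0 bp exercised, 4295 bp sedentary), and of Col4a5 and Col4a6 (0 and 3887 bp each). Col4a5 and Col4a6 encode basement membrane collagens and stand head to head on chromosome X, so both windows hold the same peak (chrX:141472404-141476290). Myoc, which encodes the secreted protein myocilin, followed with 0 and 3232 bp, and Kcnk9, a two-pore potassium channel, with 0 and 3188 bp. Adra1b had 25 exercised and 23 sedentary peaks assigned to it, so that the gap in this window stood beside peaks of both lists elsewhere.

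**Figure D3:**
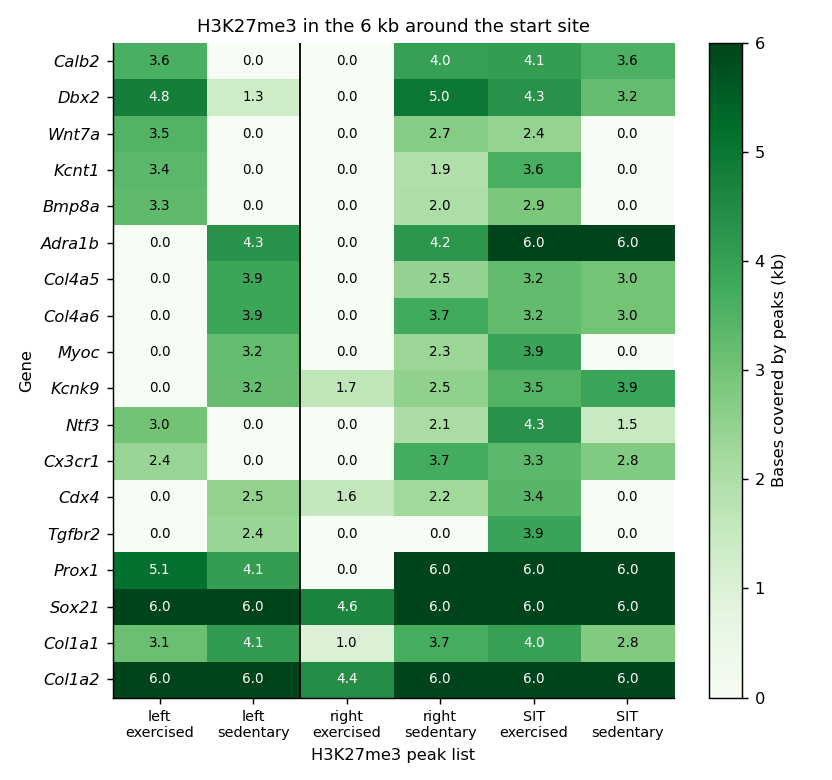
Bases covered by H3K27me3 peaks in kb within the 6 kb around the start site, in the 6 H3K27me3 lists. Shown are the 10 promoter windows that differed most between the left lists among genes of the 24 gene lists, and 8 further genes named in the text. The left exercised and left sedentary columns differ for Calb2 to Tgfbr2, while in the exercised list of the right hippocampus most of these windows hold 0 kb and in the exercised SIT list all of them are covered.

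Developmental regulators carried H3K27me3 in both conditions. By start site, 36 of 39 Hox genes, 94 of 110 other homeobox genes, 24 of 42 SOX, T-box and GATA genes, 21 of 43 forkhead genes and 21 of 49 bHLH genes lay in a peak of both lists. The same was true of 6.32% of all protein-coding genes. Start sites in 1 list alone were fewer than those in both in each of these lists. They were 0 exercised-only and 2 sedentary-only among Hox genes (Hoxa13 and Hoxd13) and 5 and 1 among other homeobox genes. Among SOX, T-box and GATA genes they were 1 and 0, among forkhead genes 2 and 1 and among bHLH genes 1 and 0. Over all protein-coding genes 1.74% were exercised-only and 1.02% sedentary-only. These were 19.2% and 11.2% of the start sites in a peak of either list. In Hoxa13 the window was covered over 5452 bp (exercised) and 6001 bp (sedentary), so that exercised peaks lay on both sides of the uncovered start site.

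By symbol, against 18.5% exercised-only and 9.13% sedentary-only of all listed genes, Hox genes had 0 and 3 of 8 listed, as described above, and other homeobox genes 1 and 2 of 101. Forkhead genes had 2 and 0 of 28, bHLH genes 0 and 2 of 28, and SOX, T-box and GATA genes 0 and 0 of 26. Onecut1, a homeobox gene of motor neurons and liver, had 1 exercised-only peak of 2133 bp in an intron, while its promoter window was covered over 6001 bp in both lists. Foxn1, the forkhead gene of the thymus, had 1 exercised-only peak of 3375 bp, and Foxd2 had 3 exercised peaks, 2 of which overlapped sedentary peaks of another gene. Cdx4, a caudal homeobox gene, had a sedentary-only peak over its start site (2503 bp), and Hey2, a target of Notch signalling (3469 bp), and Myf5, a regulator of muscle fate (4213 bp), had sedentary-only peaks at the promoter. The sedentary peak of Hmx3 (15535 bp) was 100% covered by exercised peaks.

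Secreted signals and their receptors had shares in 1 list alone near or below those of all listed genes. Of 36 listed WNT pathway genes, 5 were exercised-only and 0 sedentary-only. These were the ligands Wnt5b (2260 bp at the promoter) and Wnt7a (3491 bp), the receptors Fzd7 (2 peaks, 5504 bp) and Fzd8 (4509 bp), and the secreted inhibitor Dkk4 (1996 bp). The peak assigned to Fzd8 lay 629692 bp from its start site and that of Dkk4 6049 bp from it. Of 31 listed BMP and TGF-beta pathway genes, 5 were exercised-only, all of them ligands or secreted antagonists. Bmp8a (3301 bp) and Gdf3 (2033 bp) were covered at the start site, Lefty2, an inhibitor of Nodal, had 3 peaks (5518 bp), and the peaks of Bmp10 (2444 bp) and Gdf10 (2546 bp) were intergenic. The 1 sedentary-only gene was Tgfbr2, the type II TGF-beta receptor, with 2384 bp over the start site. The WNT and BMP lists were thus 13.9% and 16.1% exercised-only and 0% and 3.23% sedentary-only, against 18.5% and 9.13% over all listed genes.

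Of 25 listed collagen genes, 4 were exercised-only (Col3a1, Col5a3, Col25a1 and Col28a1) and 2 sedentary-only (Col4a5 and Col9a1), which is near the 18.5% and 9.13% of all listed genes. The peak of Col5a3 (2659 bp), a fibrillar collagen, lay at the promoter, and that of Col9a1 (1669 bp), a cartilage collagen, at the start of a transcript, although the window around the start of the gene held 0 bp. The peak of Col3a1 (2097 bp) lay 274404 bp upstream. Collagen genes covered at the start site in both lists numbered 15 of 44, against 6.32% of all protein-coding genes.

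Of all protein-coding start sites 90.9% lay in no peak of either list. Among channel, receptor and guidance genes of neurons the same was true of 64 of 77 potassium channel genes, 20 of 26 glutamate receptor genes, 24 of 26 GABA and glycine receptor genes, 37 of 50 monoamine and acetylcholine receptor genes and 65 of 72 axon guidance genes. Of 28 listed potassium channel genes, 4 were exercised-only and 4 sedentary-only (14.3% each, against 18.5% and 9.13% of all listed genes). Exercised-only were Kcna5 (2124 bp over the start site), Kcna6 (2 peaks, 4838 bp), Kcnk16 (2570 bp) and Kcnn3 (2272 bp). Sedentary-only were Kcnh5 (2 peaks, 4691 bp), Kcnj2, the inward rectifier Kir2.1 (2 peaks, 5127 bp), Kcnk18 (1941 bp) and Kcns3 (2696 bp). The peaks of Kcnj2 lay 475392 and 499709 bp from its start site, and the peak of Kcns3 was 41.6% covered by an exercised peak assigned to another gene.

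Among transmitter receptors the members in 1 list alone were all exercised-only by symbol. Of 23 listed monoamine and acetylcholine receptor genes these were 6 (26.1%, against 18.5% of all listed genes). The serotonin receptor genes were Htr1d (3789 bp, promoter) and Htr3b (1643 bp, start site). The others were the dopamine receptor gene Drd1 (2259 bp, promoter), the beta-1 adrenergic receptor gene Adrb1 (2728 bp, 50561 bp upstream), the nicotinic receptor gene Chrna6 (2202 bp, promoter) and the histamine receptor gene Hrh3 (2051 bp, start site). By start site the same list of 50 genes had 3 exercised-only (Htr1b, Htr3b and Hrh3) and 3 sedentary-only (Drd4, Adra1a and Chrna2) members. The direction by symbol thus did not hold by start site. Of all protein-coding start sites, 1.74% were exercised-only and 1.02% sedentary-only. Of 10 listed glutamate receptor genes, the NMDA receptor subunit genes Grin2d (3195 bp) and Grin3b (1613 bp) were exercised-only, a share near that of all listed genes. By start site, Grik3 and Grin3b lay in an exercised peak alone and Grm4 in a sedentary peak alone. None of the 3 listed GABA and glycine receptor genes was in 1 list alone.

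Of 19 listed axon guidance genes, 4 (21.1%, against 9.13% of all listed genes) were sedentary-only, namely Robo2 (2606 bp), Efnb2 (2392 bp), Epha4 (2393 bp) and Sema5a (2431 bp), and 2 were exercised-only, the ephrin receptor genes Epha5 (2700 bp) and Epha8 (1944 bp), against 18.5% of all listed genes. Of these 6 peaks, that of Sema5a lay at the promoter. The peaks of Robo2, Efnb2 and Epha5 lay 450543, 380051 and 453967 bp from the start site.

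Of 35 neurotrophin and activity-induced genes, 29 had the start site in no peak, against 90.9% of all protein-coding genes. By symbol, 2 of 7 listed (28.6%) were exercised-only, against 18.5% of all listed genes, and 0 sedentary-only. Ntf3, which encodes neurotrophin-3, had 2 exercised-only peaks (6707 bp), 1 of them over the start site (chr6:126162669-126166913), and 0 sedentary peaks. Vgf, a neuropeptide precursor induced by activity, had 1 exercised-only peak of 3256 bp that lay 4305 bp upstream of the start site. The window of Bdnf was covered over 0 bp in both.

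Of the lists taken as a background, no start site of 34 Polycomb and H3K27 enzyme genes or of 76 cytosolic ribosomal protein genes lay in a peak. By symbol, 0 of 5 listed Polycomb genes were in 1 list alone, and Rpl6 (1874 bp) and Rps3 (3095 bp) were the 2 sedentary-only of 8 listed ribosomal protein genes (25%, against 9.13% of all listed genes). Among 6 listed cell cycle inhibitor genes, Cdkn1a (1334 bp, 5976 bp downstream of the start site) and Cdkn1b (1956 bp, promoter) were exercised-only (33.3%, against 18.5% of all listed genes). By start site, however, 0 of 8 lay in an exercised peak alone and 1, Cdkn3, in a sedentary peak alone. These stood against 1.74% and 1.02% of all protein-coding genes. Cdkn2a was covered over 6001 bp in both. Over the 919 symbols of the 24 lists, 426 were listed, of which 39 (9.15%) were exercised-only and 21 (4.93%) sedentary-only, against 18.5% and 9.13% of all listed genes. At equal list lengths the order turned, with 25 exercised-only and 32 sedentary-only.

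**Figure D4:**
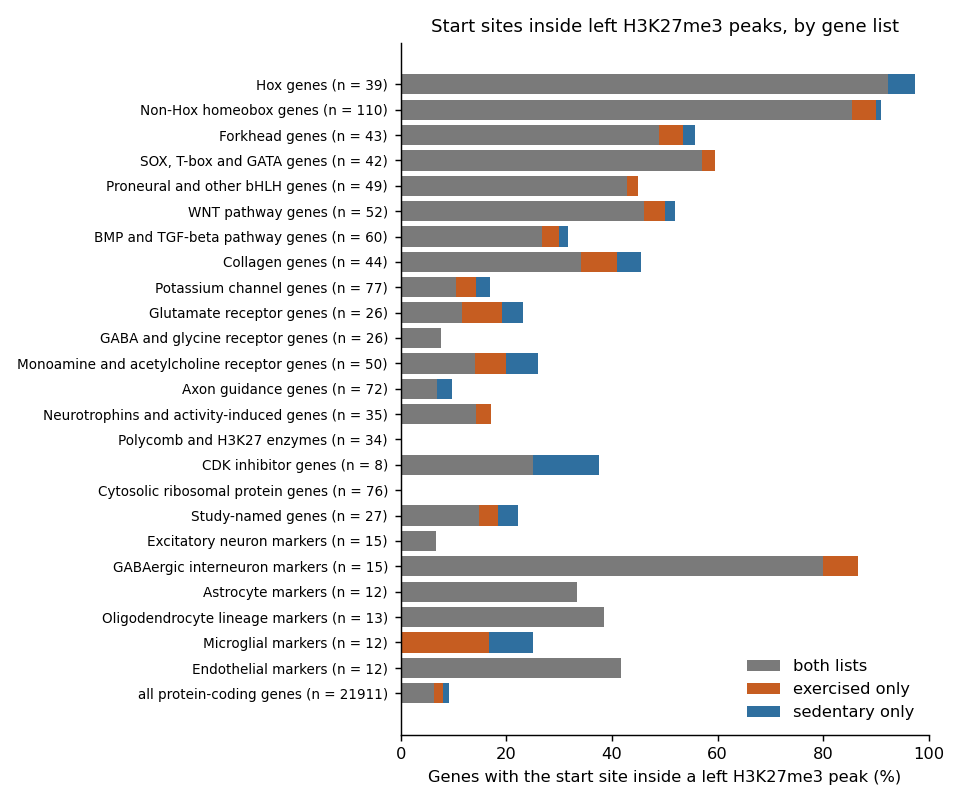
Share of genes in percent with the start site inside a left H3K27me3 peak, for 24 gene lists and all protein-coding genes, split into start sites in both lists (grey), the exercised list alone (orange) and the sedentary list alone (blue). Homeobox genes and GABAergic interneuron markers are covered mostly in both lists, and ribosomal protein and Polycomb genes are at 0.

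Marker genes were read as a check of the cell type on the label. Of 15 markers of excitatory neurons, 14 had the start site in no peak of either list, Emx1 and Slc17a7 among them, which is near the 90.9% of all protein-coding genes. Of 15 markers of GABAergic interneurons, 12 lay in peaks of both lists, against 6.32% of all protein-coding genes, among them Gad2, Slc32a1, Dlx1, Dlx2, Lhx6 and Sst, 1 (Calb2) lay in an exercised peak alone and 2 (Gad1 and Pvalb) in none. Start sites in both lists numbered 4 of 12 for astrocytes, 5 of 13 for the oligodendrocyte lineage, 0 of 12 for microglia and 5 of 12 for endothelium. Of the 12 microglial markers, 2 had exercised-only start sites (Cx3cr1 and C1qc) and 1 a sedentary-only start site (Tmem119), against 1.74% and 1.02% of all protein-coding genes. By symbol, Calb2 (3628 bp), Cx3cr1 (2407 bp) and Cdh5 (2145 bp) were exercised-only and no marker was sedentary-only, so that 3 and 0 of 38 listed markers stood against 18.5% and 9.13% of all listed genes. Fewer marked nuclei of a type and less mark per nucleus cannot be told apart in these purified nuclei.

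Of the 27 genes named in the study, 17 were listed in neither condition, among them Bdnf, Nr4a1, Gap43, Kcna1, Gabra2 and Dusp5. These genes were chosen by the study on samples of this series, so their counts are no independent evidence. Of the 10 listed, 2 were exercised-only and 2 sedentary-only (20% each), against 18.5% and 9.13% of all listed genes. Col3a1 and Rtl1 were exercised-only. The peak of Rtl1, an imprinted gene derived from a retrotransposon, was 3865 bp wide and lay at its promoter, and the window was covered over 2603 bp (exercised) and 1105 bp (sedentary). Efnb2 and Myoc were sedentary-only. Of the 6 in both lists, Prox1, a homeobox gene of dentate granule cells, had 28 exercised and 23 sedentary peaks and a window covered over 5121 and 4058 bp. Efna5, an ephrin ligand gene, had 34 and 23 peaks. Col1a2 was covered over 6001 bp in both, Col2a1 over 5894 and 6001 bp, Col1a1 over 3129 and 4121 bp and Col5a1 over 2961 and 2215 bp. Sox21, though not listed by symbol, was covered over 6001 bp in both.

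The same mark was then read in mice the comparison did not use. The 4 other H3K27me3 lists, from the right hippocampus (separate) and from both hippocampi isolated together with RNA (SIT), differ in length from 9899 to 25693 peaks. The exercised list was shorter than the sedentary list in the right hippocampus (9899 against 21790 peaks, ratio 0.454) and longer in SIT (25693 against 10279, ratio 2.50). Exercised-only left peaks were found in 9.32% of cases in the exercised right list and 61.5% in the sedentary right list, and in 73.3% and 21.7% in the exercised and sedentary SIT lists. Sedentary-only left peaks were found in 11.9% and 64.7%, and in 76.6% and 23.1%. Both kinds were thus found most often in the longer list of each pair, whichever condition it came from. The overlapped exercised peaks were found in 56.7% and 95.3%, and in 97.8% and 76.2%.

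**Figure D5:**
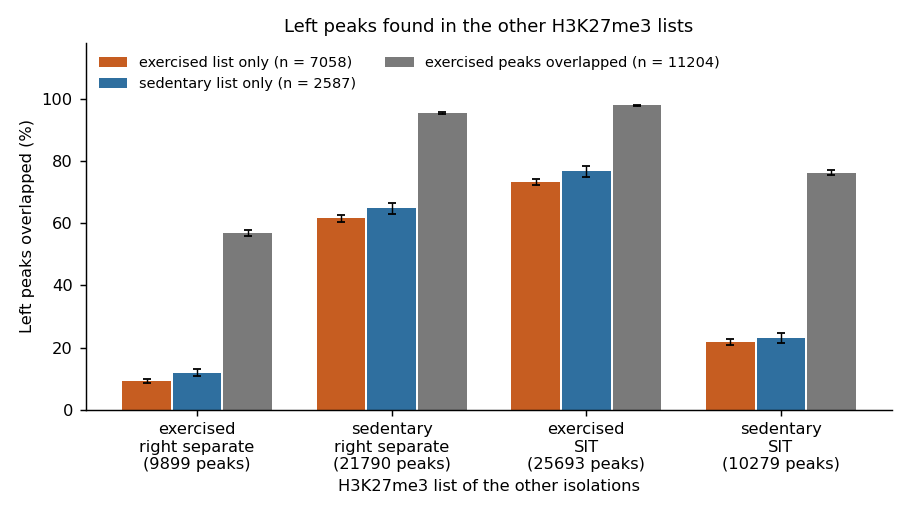
Share of left H3K27me3 peaks in percent that share at least 1 base with each of the 4 H3K27me3 lists of the other isolations, for peaks in the left exercised list only, the left sedentary list only and overlapped exercised peaks, with 95% Wilson intervals and the length of each list. Exercised-only and sedentary-only peaks stand side by side in each list, from 9.32% and 11.9% in the exercised right list to 73.3% and 76.6% in the exercised SIT list.

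Most peaks without a counterpart in the left hippocampus were present elsewhere. At least 1 of the 4 other lists held 82.5% [81.6 to 83.4] of exercised-only and 86.2% [84.9 to 87.5] of sedentary-only peaks, and of those of 5 kb or more 98.9% and 100%. All 4 held 3.94% and 4.10% of them, against 51.1% of overlapped exercised peaks. Peaks that kept the pattern of the left hippocampus were rare. Of the 7058 exercised-only peaks, 49 were in both other exercised lists and in neither other sedentary list, and 47 had the opposite pattern. Of the 2587 sedentary-only peaks, 17 were in both other sedentary lists and in neither other exercised list, and 38 had the opposite pattern.

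Gene symbols behaved alike. Of the 1060 exercised-only genes, 22 were exercised-only in the right hippocampus and 580 (54.7%) sedentary-only there, while in SIT 603 (56.9%) were exercised-only and 14 sedentary-only. Of the 523 sedentary-only genes, 273 (52.2%) were sedentary-only in the right hippocampus and 297 (56.8%) exercised-only in SIT. In all 3 comparisons, 14 genes were in the exercised list alone and 3 in the sedentary list alone. The first 5 of the 14 by peak width were Bloc1s5 (6280 bp), which encodes a subunit of a lysosome-related organelle complex, Slc6a18 (6132 bp), a transporter gene of the kidney, Pparg (4966 bp), the nuclear receptor of fat cells, Rfesd (3554 bp) and Il15ra (2536 bp), an interleukin-15 receptor subunit. One of the peaks of Slc6a18 overlapped a sedentary peak. These counts are of symbols, and the regions kept the pattern in some of the genes. The left peak of Rfesd was covered over 2520 and 2197 bp by the exercised right and SIT lists and over 0 bp by the sedentary ones. Those of Slc29a3 (1379 and 3149 bp) and Elf4 (2172 and 2376 bp) were covered by the sedentary right and SIT lists and over 0 bp by the exercised ones. The left peak of Bloc1s5 was covered over 2139 bp by the exercised and 3403 bp by the sedentary right list, and the left peaks of Pparg were covered over 0 bp in each of the 4 other lists. The 3 were Fam174b (4489 bp), whose peak was 93.9% covered by exercised peaks, Slc29a3 (3149 bp), a nucleoside transporter gene, and Elf4 (2417 bp), an ETS factor gene.

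Start sites of the named promoters followed the lists in which they were found. The window of Wnt7a was covered over 0 bp (exercised) and 2703 bp (sedentary) in the right hippocampus and over 2443 and 0 bp in SIT. That of Bmp8a was covered over 0 and 2001 bp and over 2879 and 0 bp, and that of Ntf3 over 0 and 2066 bp and over 4329 and 1476 bp. Myoc, sedentary-only on the left, was covered over 0 and 2342 bp in the right hippocampus and over 3936 and 0 bp in SIT, and Tgfbr2 over 0 bp in both right lists and over 3934 and 0 bp in SIT. None of these 5 was thus in the same condition alone in all 3 comparisons. Windows of the 381 start sites in an exercised left peak alone were touched in 33.9% (exercised right) to 85.8% (exercised SIT) of cases, those of the 223 in a sedentary left peak alone in 37.2% to 93.7%, and those of start sites in no left peak in 1.79% to 7.03%.

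H4K8ac, an acetylation of histone H4 found at active genes, was nearly absent from these peaks. Its left hippocampal lists numbered 12168 (exercised) and 36425 (sedentary) peaks. By the methods of the study, 3 exercised H4K8ac libraries of the separate isolation exceeded its limit for false discovery and were excluded. The labels give 3 such libraries to each hemisphere. Which hemisphere the excluded ones came from, and how they bear on the exercised list used here, is not given in the sources used here. Exercised-only H3K27me3 peaks overlapped H4K8ac of the exercised list in 0.0708% of cases and of the sedentary list in 0.354%. Sedentary-only peaks did so in 0.155% and 0.541%. Overlapped exercised peaks did so in 0.0982% and 0.616%. Of protein-coding genes with the start site in no H3K27me3 peak, 9.80% held exercised and 26.95% sedentary H4K8ac in the promoter window. These shares were 3.19% and 8.51% in windows touched by the exercised H3K27me3 list alone. In windows touched by the sedentary H3K27me3 list alone they were 3.21% and 13.2%. Of the 39 exercised-only and 21 sedentary-only list members, 11 had H4K8ac in the promoter window. In 9 of these windows the left H3K27me3 lists covered 0 bp. The others were Cdkn1b and Rps3. H4K8ac lay within the promoter window of Cdkn1b over 1679 bp (exercised) and 1500 bp (sedentary), where the exercised H3K27me3 peak covered 339 bp, and of Rps3 over 0 and 1831 bp, where the sedentary H3K27me3 peak covered 1157 bp.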

How the data were processed

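H3K27me3 was profiled by CUT&RUN-seq in nuclei of 6 left hippocampi, 3 exercised and 3 sedentary. Per the labels and the study's methods, the authors aligned reads to mm10 with Bowtie2 2.4.1, called peaks with SEACR and annotated them with ChIPseeker 1.8.6, with promoters set at 3000 bp on either side of a start site. The deposited lists give peak coordinates, widths, annotation, distance to a start site and gene symbol. They hold no read count, signal or score, so the depth of each library is unknown. How the 3 libraries of a condition were combined is not given in the sources used here.

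Peaks of both lists were compared by base overlap (minimum 1 bp), with Python 3.11.15, numpy 2.4.6, pandas 2.3.3 and scipy 1.17.1. The overlap code was tested on simulated intervals. Sequence and start sites came from GRCm38.p6 and its annotation. The 250 bases before all 21911 protein-coding start sites were read from the genome. With 1 pooled list per condition no test was run, and Wilson intervals (95%) cover counting error alone. Named genes were the 27 named in the study, list members found in 1 condition alone (lists with 10 or fewer), per direction the 10 genes of largest summed width without an overlapping peak, the genes of the widest 5 peaks, the 5 list genes per direction whose promoter windows differed most, and up to 5 genes per direction with the same status in the right and SIT comparisons. Gene symbols and lists were chosen with earlier results of these data known. Further genes shown beside them were picked after their values were seen. Other overlap rules, widths, joining distances and equal list lengths were tried as alternatives. Results for some list members are not reported here.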

Additional observations from a re-analysis of the deposited data

Results flagged for a closer look

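The ratio of exercised to sedentary peak numbers was 1.26 in the left hippocampus and 0.454 in the right hippocampus, so that the exercised list was the longer in 1 hemisphere and the shorter in the other. With 1 pooled list per condition and hemisphere this difference was not tested. Its part in the peaks and genes present in 1 left list alone was not tested either.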

How the results depend on the processing

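Of 59 alternative values, each read by itself, 24 counted as unchanged, 34 moved, and the gene ratio turned its direction. A value counted as unchanged within the counting interval, the spread or 1.5 times the reported count. The Jaccard index and median widths counted as unchanged only when equal, so small shifts in them are among those that moved. Leaving out a replicate was not run, since each list pools its libraries. No paired analysis was possible because each condition has 1 pooled list without replicate numbers. At equal list lengths, the ratio of exercised-only to sedentary-only genes turned from 2.03 to 0.939 (788 sedentary-only genes), overlapped shares were 67.1% (exercised) and 74.4% (sedentary), the Jaccard index was 0.541, the exercised median width 3782 bp, its promoter share 21.0%, and list members in 1 condition alone 25 (exercised) and 32 (sedentary) in place of 39 and 21. Start sites in 1 list alone were then 282 and 283 in place of 381 and 223, so the order of both pairs of counts turned as well. With peaks of at least 5000 bp the overlapped shares were 64.3% and 83.5%, the Jaccard index 0.566, promoter shares 30.7% and 32.7%, and the shares found in another list 98.9% and 100%. Counted by bases, promoter shares were 29.4% and 31.4%. With peaks 3000 bp or less apart joined, median widths were 3652 and 3764 bp and the Jaccard index 0.562. Asking for 50% reciprocal overlap gave 41.3% and 52.1%, and 50% of the peak covered gave 51.5% and 73.6%. With 50% of the peak covered, 73.6% and 78.7% were found in another list. Exercised-only genes numbered 662 by promoter peaks. With at least 2 peaks they were 186 against 48 (ratio 3.88). For peaks of 2000 to 5000 bp, promoter shares of overlapped peaks were 18.4% (exercised) and 17.5% (sedentary), and distal intergenic shares 48.2% and 47.7%. Equal list lengths for start sites and peaks of 2000 to 5000 bp for GC content and annotation were added after seeing the data. The causes were not tested. The depth of each library is unknown, so an absent peak is a region not called and not a region shown to lack the mark.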

Other observations

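Among genes in both left lists, the largest differences in peak number, picked after the values were seen, included Ntm, Unc5d and Irx1. Ntm, which encodes the adhesion protein neurotrimin, had 53 exercised and 25 sedentary peaks. Unc5d, a netrin receptor gene, had 41 and 15, and Irx1, an Iroquois homeobox gene, had 48 and 27. In the other direction, Erbb4, a neuregulin receptor gene, had 35 exercised and 45 sedentary peaks, Zfp521 had 31 and 40, and Dach1 had 21 and 28. These are peak numbers in lists of unequal length and were not tested.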
